A study of Homo sapiens with 2 samples.

Results

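The FOS, JUN and EGR immediate early genes were examined in a list of R-loop regions that differed between control and APOBEC3B-depleted melanoma cells. The 10 genes, FOS, FOSB, FOSL1, FOSL2, JUN, JUNB, JUND, EGR1, EGR2 and EGR3, were chosen by family membership, with the wide regions at EGR1 and JUND already known. A region was assigned to a gene when it overlapped the annotated gene or when its midpoint lay within 3 kb of one of the gene's transcription start sites (TSSs). Under this rule 2 of the 562 regions belonged to 2 of the 10 genes. The region at EGR1 was 3948 bp wide and the region at JUND 3860 bp, the third and the fourth widest of the list. The other 8 genes had none.

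R-loops are RNA:DNA hybrids with a displaced DNA strand that form mostly behind RNA polymerase. They were mapped by CUT&Tag, in which an antibody directs a transposase to a protein on chromatin, in OMM2.3, an established uveal melanoma line. Both groups expressed V5 tagged RNASEH1_D210N, a form of RNase H1 that binds hybrids and lacks catalytic activity, and were profiled with the same V5 antibody. The shCtrl group carried a control hairpin and the shA3B group a hairpin against APOBEC3B (A3B), with 1 library each, so no value below has a replicate check. The deposited list holds positions on GRCh38, with no read count, score, strand or direction. It does not say in which library a region was higher, it shows only regions that differed, and a gene without a region may carry an R-loop that was alike in both libraries. It gives no read depth, which is therefore unknown, and no measurement of expression, so that the cell type was not checked against marker genes.

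Immediate early genes are transcribed within minutes of a growth factor, stress or serum signal, without new protein synthesis. FOS proteins pair with JUN proteins through leucine zippers to form the AP-1 transcription factor, while EGR proteins bind GC-rich DNA through zinc fingers. MAP kinases switch on many of these genes through serum response factor (SRF), which binds the CArG box together with ETS family partners, and through CREB, which binds the cyclic AMP response element.

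The starts of EGR1 and JUND are shown because both lie well inside the listed regions and differ in their exact matches to the searched response elements. The promoter sequences are those of RefSeq on GRCh38.p14, from 250 bases before to 50 bases after the start of transcription, 5′ to 3′ on the coding strand. Capitals mark CArG boxes, the cyclic AMP response element TGACGTCA and the EGR site GCGNGGGCG on either strand. The EGR1 promoter is chr5:138465229-138465528 on the plus strand, the 300 bases before it are chr5:138464929-138465228, and the JUND promoter is chr19:18281573-18281872 on the minus strand.
EGR1 promoter: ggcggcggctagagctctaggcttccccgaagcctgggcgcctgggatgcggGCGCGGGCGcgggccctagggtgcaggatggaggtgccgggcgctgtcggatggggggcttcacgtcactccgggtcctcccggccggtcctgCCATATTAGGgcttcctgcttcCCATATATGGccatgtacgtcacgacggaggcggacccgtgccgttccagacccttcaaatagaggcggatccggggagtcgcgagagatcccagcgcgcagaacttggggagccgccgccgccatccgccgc
EGR1 upstream: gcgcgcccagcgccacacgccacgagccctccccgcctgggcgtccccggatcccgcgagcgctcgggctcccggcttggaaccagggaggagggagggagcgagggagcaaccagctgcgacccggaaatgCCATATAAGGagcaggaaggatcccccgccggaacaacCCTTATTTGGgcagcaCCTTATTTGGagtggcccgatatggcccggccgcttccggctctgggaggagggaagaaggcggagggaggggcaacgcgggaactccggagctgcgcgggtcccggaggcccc
JUND promoter: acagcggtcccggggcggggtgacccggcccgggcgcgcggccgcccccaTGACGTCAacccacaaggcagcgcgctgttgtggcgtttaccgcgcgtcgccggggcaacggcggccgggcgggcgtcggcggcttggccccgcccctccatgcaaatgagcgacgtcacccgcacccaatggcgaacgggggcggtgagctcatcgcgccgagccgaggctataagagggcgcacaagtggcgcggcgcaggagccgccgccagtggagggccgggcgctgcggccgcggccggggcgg

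These windows held 5 CArG boxes at EGR1, 3 of them in the upstream block and 2 in the promoter, and none at JUND. The boxes began 418, 380, 364, 105 and 83 bases before the TSS, and no other CArG box lay anywhere in the 3948 bp of the EGR1 region. The JUND promoter held 1 cyclic AMP response element of the exact form TGACGTCA, 200 bases before the TSS, the only one in the JUND region. The EGR1 region held no exact match. Variant or shorter forms of the element were not searched. The letters ACGTCA, a part of it, also stand in the EGR1 promoter and elsewhere in the JUND promoter.

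EGR1, a zinc finger factor induced by growth signals, lies on chromosome 5 from 138465479 to 138469303 on the plus strand, spans 3825 bp and has 2 exons. Its region ran from 138463419 to 138467366. It began 2060 bp before the TSS and ended 1888 bp into the gene, so that the midpoint was 87 bp before the TSS. The region covered 49.4% of the gene. Exon 1 (590 bp) and intron 1 (688 bp) were covered whole, while 610 of the 2547 bp of exon 2 were covered (23.9%). All 283 bp of the 5′ untranslated region and 917 of 1629 coding bases (56.3%) lay inside it, and none of the 1222 bp of the 3′ untranslated region did. The region stopped 1937 bp short of the end of the gene. Upstream, it contained all 689 bp of the unnamed lncRNA gene ENSG00000289267, which is annotated on the opposite strand with its TSS 801 bp before that of EGR1.

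JUND encodes the AP-1 subunit that many cells express without stimulation. It lies on chromosome 19 from 18279694 to 18281622 on the minus strand, spans 1929 bp and has 1 exon. Its region ran from 18279371 to 18283230 and thus covered 100% of the gene, that is the 138 bp of the 5′ untranslated region, the 1041 coding bases and the 747 bp of the 3′ untranslated region, with the stop codon counted in neither. It began 1608 bp before the TSS and continued 323 bp past the annotated end of the gene. The midpoint was 322 bp after the TSS, in the coding sequence. The region also held the whole of MIR3188, a microRNA gene of 85 bp on the opposite strand that begins 455 bp before the JUND TSS. The mature product of this gene, as RefSeq gives it, is shown with its seed (bases 2 to 8) in capitals.
hsa-miR-3188: aGAGGCUUugugcggauacgggg

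**Figure D1:**
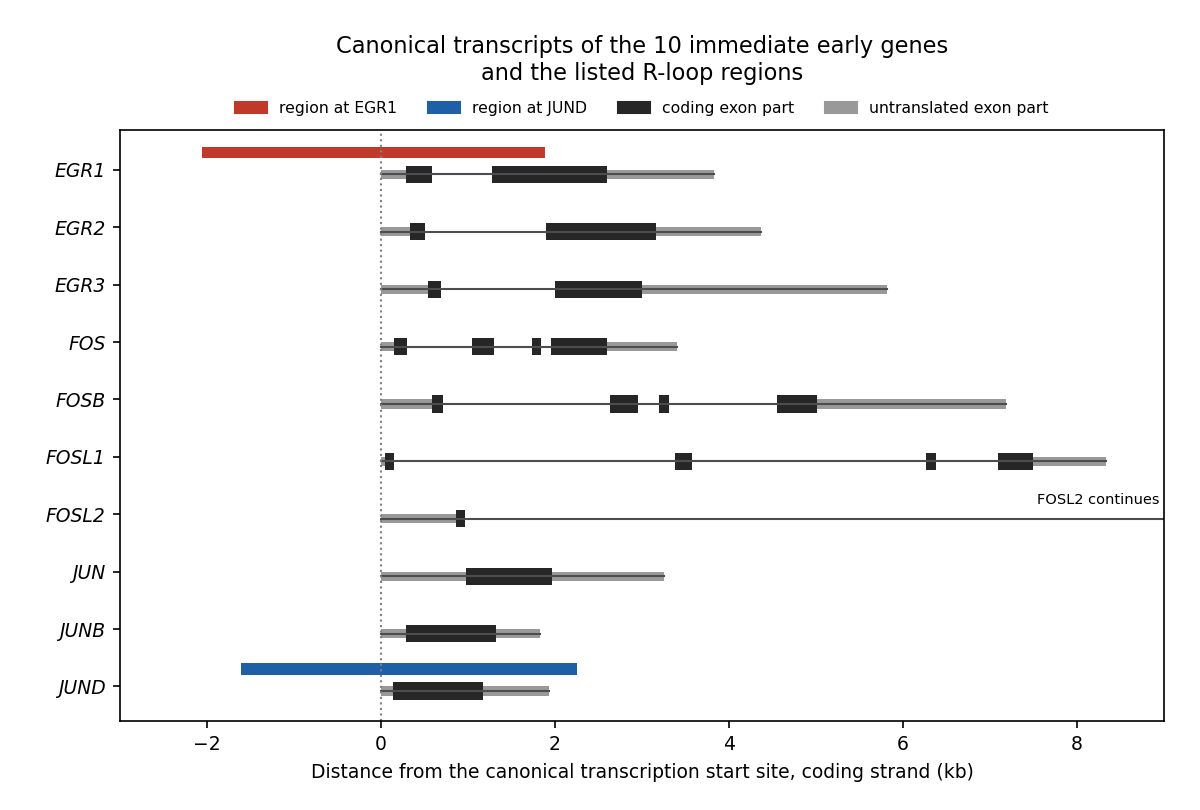
Canonical transcripts of the 10 genes drawn to scale from the TSS at 0 (x axis, kb, coding strand to the right), with thick black boxes for coding parts, grey boxes for untranslated parts and coloured bars for the listed regions. The bar at EGR1 ends inside exon 2, the bar at JUND covers the single exon and passes its end, and the other 8 genes have no bar (FOSL2 runs past the right edge).

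The plot of transcripts and regions shows that both regions crossed the TSS by a long way in each direction. Among the 378 regions with the midpoint within 3 kb of a protein-coding TSS, the median reach was 552 bp before the nearest TSS (quartiles 355 and 807 bp) and 502.5 bp after it (quartiles 344 and 768 bp). The EGR1 region ranked eighth before the TSS and ninth after it, and the JUND region ranked 13th and sixth. By the shorter of its 2 sides, the EGR1 region, with 1888 bp, was first of the 378 and the JUND region, with 1608 bp, the third. These ranks carry no test, since the width had brought both genes to attention.

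**Figure D2:**
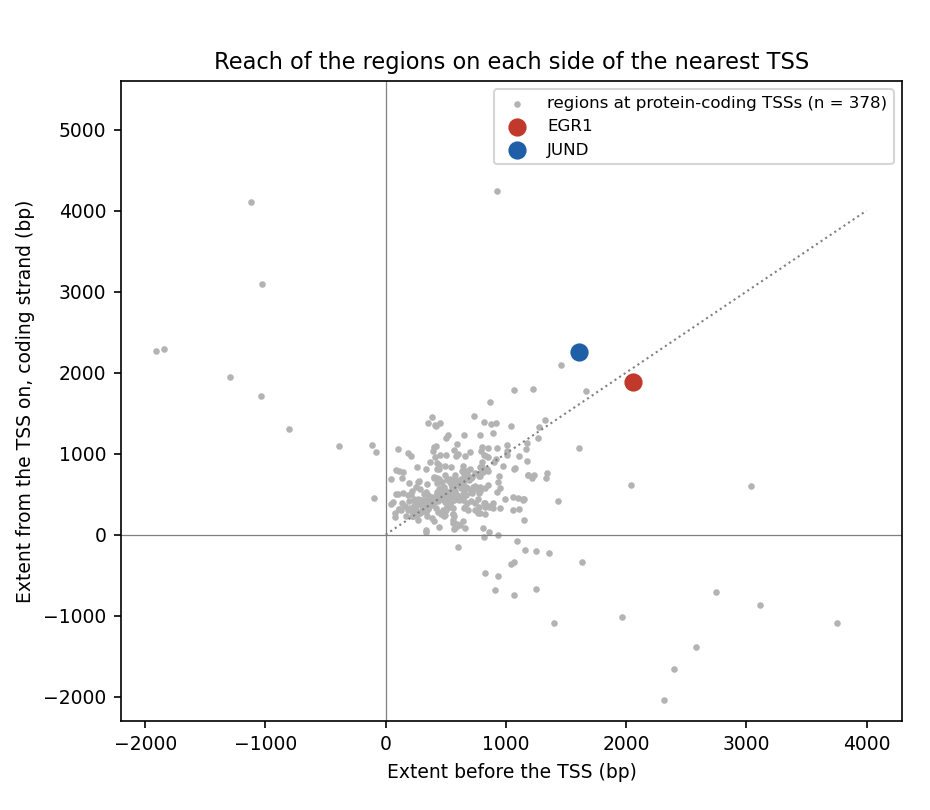
Reach of the 378 regions at protein-coding TSSs before (x axis, bp) and after (y axis, bp) the nearest TSS, with a dotted line of equal reach and negative values where a region does not cross the TSS. EGR1 (2060 and 1888 bp) and JUND (1608 and 2252 bp) lie near the dotted line and beyond the bulk of the points.

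Gene length was considered because 9 of the 10 members span at most 10 kb. At the 66 regions whose nearest protein-coding TSS belonged to a gene of that size, the median share of the gene covered was 15.5% (quartiles 5.73% and 28.7%). The EGR1 region was the second widest of these 66 and the JUND region the third. In gene coverage EGR1 ranked 13th of 66. Just 8 regions (12.1%, 95% Wilson interval 6.27 to 22.1) covered their gene whole, and JUND, at 1929 bp, was the longest of those 8 genes. The others were BORCS6 (1836 bp) and the histone genes H1-2, H2AC15, H3C7, H2AC17, H2AC12 and H2BC13, of 451 to 731 bp.

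The positions of the 8 members without a region are given so that the distances can be read. On the plus strand are FOS (chromosome 14, 75278826 to 75282230), FOSB (chromosome 19, 45467995 to 45475179), FOSL2 (chromosome 2, 28392448 to 28417317) and JUNB (chromosome 19, 12791486 to 12793315). On the minus strand are FOSL1 (chromosome 11, 65892049 to 65900573), JUN (chromosome 1, 58776845 to 58784048), EGR2 (chromosome 10, 62811996 to 62819167) and EGR3 (chromosome 8, 22687659 to 22693480). FOSL2, at 24870 bp, is the longest of the 10 members and JUNB, at 1830 bp, the shortest.

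The 8 members without a region were far from any. FOSL1, a FOS family gene on chromosome 11, came closest, with 392907 bp to the nearest region, so none lay just outside the 3 kb limit. For EGR2, which acts in peripheral myelination and hindbrain patterning, the distance was 702459 bp. For FOS itself it was 975623 bp. FOSB, FOSL2, JUNB and JUN, the last of these the founding AP-1 subunit, stood at 1311960, 1339615, 1593256 and 3888821 bp. EGR3, which acts in muscle spindle development, had the nearest region 15068706 bp away. Annotated TSSs, each of which could bring a region in, numbered from 1 at JUNB to 8 at FOSB among these genes, against 1 at EGR1 and 2 at JUND.

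The count of 2 in 10 genes (95% Wilson interval of the share 5.67% to 51.0%) is to be set beside the background. Of the 20033 annotated protein-coding genes, 498 had a region by the same rule, or 2.49%. Among the 5133 genes of at most 10 kb the share was 1.68%, and both members with a region are of this size. Among the 1117 genes whose canonical transcript has 1 exon it was 3.22%. JUN, JUNB and JUND are all of this kind, and JUND alone had a region. The list was drawn up with EGR1 and JUND in view, so nothing is read from the difference between the members and these shares.

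Of 39 other immediate early genes 4 had a region (10.3%, 95% Wilson interval 4.06 to 23.6), namely CCN1, KLF6, NR4A2 and ZFP36L1. The share over all protein-coding genes was 2.49%. This list too was chosen with earlier results of these data known, so nothing is read from the difference. CCN1, a secreted matrix protein, had one of 1795 bp on chromosome 1 from 85580003 to 85581797, with its midpoint at a TSS (0 bp) and 27.1% of the gene covered. ZFP36L1, which promotes decay of AU-rich mRNAs, had one of 1113 bp on chromosome 14 from 68795371 to 68796483 that covered 10.3%. NR4A2, an orphan nuclear receptor, had one of 837 bp on chromosome 2 from 156331987 to 156332823 that covered 4.67%. The region of KLF6, a zinc finger factor, was 932 bp wide (chromosome 10, 3785284 to 3786215) and lay just upstream of the gene, its midpoint 468 bp before the nearest TSS. The remaining 35, with ATF3, DUSP1, IER2, NR4A1 and EGR4 among them, had none.

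Among 22 upstream regulators, which include the ETS factors ELK1, ELK3 and ELK4, SRF, CREB1, the ERK, JNK and p38 kinases and the G proteins GNAQ and GNA11, 1 had a region. This was MAPK14, the p38α kinase, with 1802 bp on chromosome 6 from 36026990 to 36028791 and the midpoint 82 bp after the TSS. None of the 11 dimer partners and cofactors, such as ATF2, BATF, JDP2, NAB1 and NAB2, had one. All 5 of these related regions were narrower than those at EGR1 and JUND, with width ranks of 77 to 351 among the 562 regions. The share over all protein-coding genes was 2.49%, and nothing is read from the counts in lists as short as these.

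**Figure D3:**
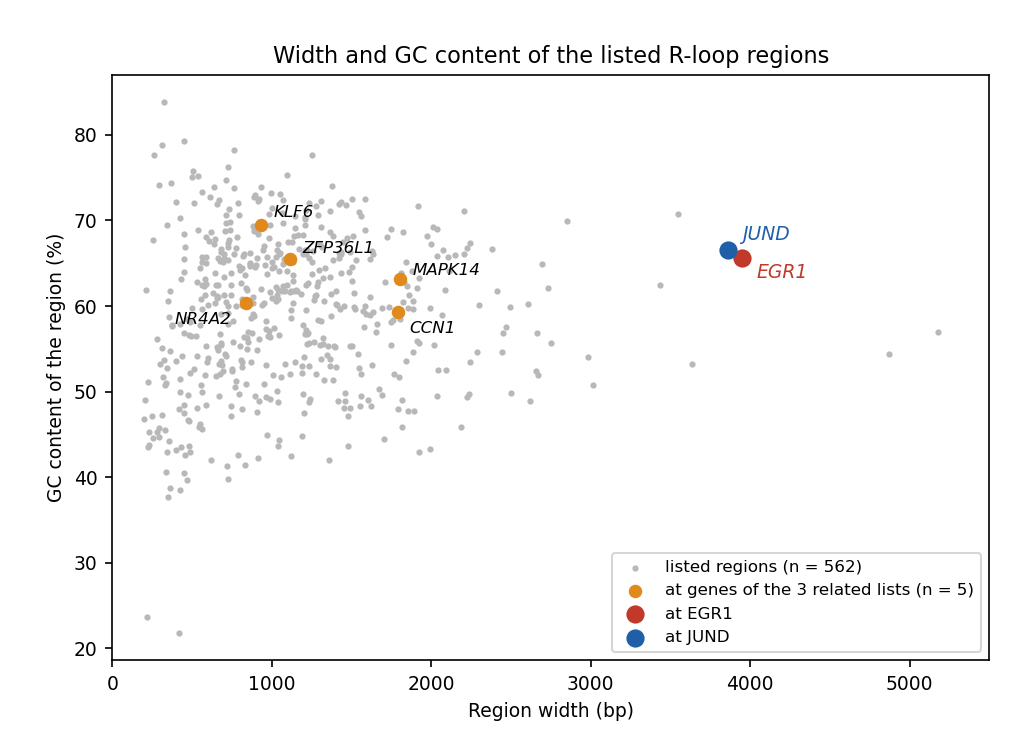
Width (x axis, bp) and GC content (y axis, %) of the 562 listed regions, with the regions at EGR1, at JUND and at the 5 genes of the related lists in colour. EGR1 and JUND lie side by side at 3948 and 3860 bp and about 66% GC, while the 5 related genes lie among the other points at 837 to 1802 bp.

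The regions at EGR1 and JUND were nearly alike in GC content, at 65.7% and 66.5%. The median of all 562 regions was 60.3% (quartiles 53.2% and 65.9%) and that of the 378 at protein-coding TSSs was 63.5%, so both were within the range of promoter regions. Their CpG content differed. The observed over expected CpG ratio was 0.622 at EGR1, with 263 CpG sites, and 0.792 at JUND, with 338, beside a median of 0.786 at protein-coding TSSs. At JUND the part inside the gene had a ratio of 0.960 and the part before the TSS 0.594. The latter is an average over 1608 bp, and in the 1 kb centred on the JUND TSS, which includes sequence on both sides, the ratio was 0.943. At EGR1 the ratio was 0.609 from the TSS on and 0.633 before it, again averages over long stretches. In the 1 kb centred on the EGR1 TSS it was 0.802.

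In bins of 100 bp, GC content reached 93.0% at JUND, in the bin centred 650 bp after the TSS in the coding sequence, and 79.0% at EGR1, in the bin centred 150 bp after the TSS. Bins inside the JUND region had a median of 68.0% and those outside it, up to 3 kb from the TSS, 52.0%. For EGR1 the medians were 66.0% and 54.5%.

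**Figure D4:**
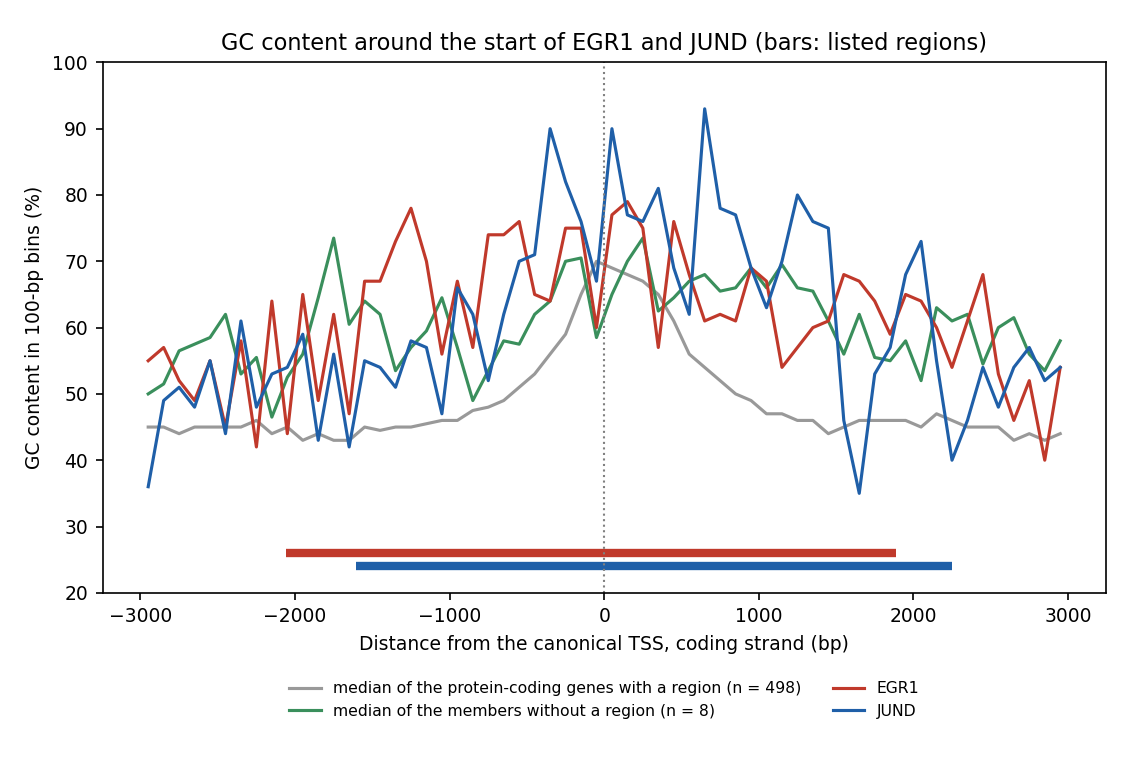
GC content in 100-bp bins (y axis, %) up to 3 kb on each side of the canonical TSS (x axis, bp) for EGR1, JUND, the median of the 8 members without a region and the median of the 498 protein-coding genes with one, with the listed regions as bars. The members stay GC-rich over a wider stretch than the median gene with a region.

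Long GC-rich starts were shared by the members that had no region. Over the 4 kb around the TSS, GC content was 65.7% at EGR1 and 65.4% at JUND. EGR3 had 66.4% and JUNB 65.2%, both without a region, and the remaining 6 lay between 56.5% and 62.6%. The median of all protein-coding genes was 50.9% and that of the 498 genes with a region 50.2%. In the narrower 1 kb around the TSS, JUND had 77.9% and EGR1 70.3%. The other 8 members lay between 56.4% at EGR2 and 69.4% at FOSL1 and did not overlap with these values. With 2 genes on one side this is a description only. In the same 1 kb the median of all protein-coding genes was 61.3% (quartiles 54% and 67.7%). That of the 498 genes with a region was 62.7% (quartiles 56.6% and 68.6%), so these 2 sets overlapped widely.

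The skew between G and C, their difference divided by their sum along the coding strand, was taken over the first 500 bp of each gene because a G-rich RNA favours a stable hybrid. It was -0.154 at EGR1, a value below which 6.19% of protein-coding genes lay, so that the RNA is C-rich there. At JUND it was -0.0025, near balance. All protein-coding genes had a median of 0.0526 and the 498 with a region 0.0642. Of the 8 other members, FOSL2 (0.0997), JUN (0.0833) and EGR2 (0.0283) had a positive skew and FOS, FOSB, FOSL1, JUNB and EGR3 a negative one, down to -0.0644. EGR1 therefore had the lowest skew of the 10. From the TSS on, runs of 3 or more G numbered 35 on the coding strand of the EGR1 region, against 62 runs of C. At JUND these numbers were 51 and 62.

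**Figure D5:**
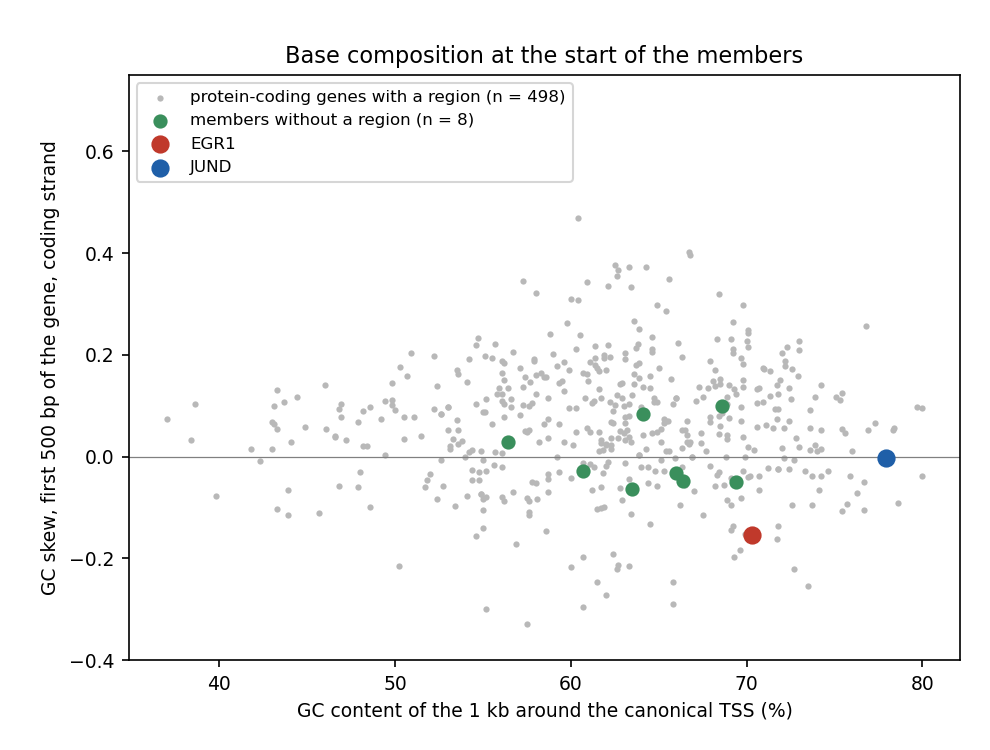
GC content of the 1 kb around the canonical TSS (x axis, %) against GC skew over the first 500 bp of the gene (y axis) for EGR1, JUND, the 8 members without a region and the 498 protein-coding genes with one. JUND lies at the high GC end near a skew of 0, and EGR1 lies below all other members.

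The composition at the middle of the JUND region can be read from the 300 coding bases around its midpoint, chr19:18281151-18281450 on the minus strand, 172 to 471 bases after the TSS. Capitals mark the 4 runs of 3 or more G, and runs of C numbered 8.
JUND midpoint: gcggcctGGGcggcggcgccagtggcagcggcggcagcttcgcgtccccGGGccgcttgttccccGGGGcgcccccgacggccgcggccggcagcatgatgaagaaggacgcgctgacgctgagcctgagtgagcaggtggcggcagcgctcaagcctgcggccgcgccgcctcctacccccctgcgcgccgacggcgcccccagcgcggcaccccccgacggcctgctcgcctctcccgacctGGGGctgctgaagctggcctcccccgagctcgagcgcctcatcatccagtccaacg

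Response elements were not confined to the members with a region. The sequences of EGR2 and FOS are shown as members that have a CArG box, in capitals, and no region. The EGR2 promoter of RefSeq is chr10:62816317-62816616 on the minus strand, and the FOS block, 450 to 151 bases before the TSS, is chr14:75278378-75278677 on the plus strand.
EGR2 promoter: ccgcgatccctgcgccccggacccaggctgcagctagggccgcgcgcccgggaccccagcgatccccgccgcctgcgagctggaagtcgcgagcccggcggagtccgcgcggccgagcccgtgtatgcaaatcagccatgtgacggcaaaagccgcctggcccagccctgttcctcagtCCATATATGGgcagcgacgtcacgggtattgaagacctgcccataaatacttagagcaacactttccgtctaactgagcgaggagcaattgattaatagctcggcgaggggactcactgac
FOS upstream: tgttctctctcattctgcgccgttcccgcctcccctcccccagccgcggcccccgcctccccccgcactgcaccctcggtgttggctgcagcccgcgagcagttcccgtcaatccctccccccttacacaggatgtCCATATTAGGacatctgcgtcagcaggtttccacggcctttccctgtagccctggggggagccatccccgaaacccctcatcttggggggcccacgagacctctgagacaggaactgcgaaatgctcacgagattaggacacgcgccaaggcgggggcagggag

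From 250 bases before to 50 after the canonical TSS, a CArG box was found at EGR1, EGR2 and EGR3, and in 1.20% of all protein-coding promoters. The sequence TGACGTCA was found in this window at JUND alone of the 10 and in 2.69% of all. FOSL1 and FOSL2 held the AP-1 site TGACTCA (3.57% of all). In this window EGR1 alone held the EGR site GCGNGGGCG (14% of all), the site its own protein binds. The ETS core CCGGAA was found in this window at FOSB alone (22.8% of all). With 500 bases on each side it was also found at EGR1, EGR2 and EGR3. The EGR1 region held 6 matches to it, all upstream of the shorter window. The GC box GGGCGG, which can share 5 letters with the EGR site, was found at 6 members (61.3% of all), with 6 matches at JUND. FOS, FOSB and JUNB held TATAAA (9.71% of all). Both strands were searched. With 500 bases on each side, 5 members had a CArG box, FOS, FOSB, EGR1, EGR2 and EGR3, and EGR1 had the most with 5. In that wider window TGACGTCA was found at FOSB as well as JUND (3.51% of all). The EGR site was found there at FOSB, FOSL1, JUNB, JUND and EGR1 (26.5% of all). Over the whole regions it had 5 matches at JUND and 6 at EGR1. Among the 498 promoters of genes with a region 1.00% had a CArG box in the shorter window, close to the share of all promoters. These matches are letters in a window, and binding was not measured here.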

How the data were processed

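CUT&Tag regions of 1 shCtrl and 1 shA3B library of OMM2.3 cells were analysed. Groups were taken from the sample titles. Per the methods of the study and the submitters' processing notes, the authors used cutadapt 4.1, Bowtie2 2.2.5 (GRCh38), Picard 2.27.3, SAMtools 1.15.1 with a mapping quality minimum of 2, SEACR 1.3 and edgeR. The thresholds of the comparison are not given in the sources used here. The deposited file has 3 columns (chromosome, start, end) and no duplicate lines. Starts were made 1-based.

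Genes, exons and TSSs came from GENCODE release 44 on GRCh38, and the canonical transcript was the one tagged so by Ensembl. The members and the related gene lists were chosen with earlier results of these data known, so no test was made and no p-value computed. All members, every gene of the related lists with a region, and other genes inside a member's region were named. Genes covered whole, genes at regions within 1 Mb of a member and examples without a region were named after their values were seen. Wilson intervals (95%) describe shares of genes or regions, not error of reads. GC content, CpG ratio and motifs were read from the GRCh38 sequence. The assignment rule was checked on simulated regions. Alternatives were a 1 kb window, overlap or midpoint alone, any base, canonical TSS, the wider 50% of regions, merging within 1 kb, other measures of coverage and GC content, and a wider motif window. Tools were pysam 0.24.0, pandas 2.3.3, numpy 2.4.6, scipy 1.17.1 and matplotlib 3.10.9 under Python 3.11.15.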

Additional observations from a re-analysis of the deposited data

How the results depend on the processing

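Of 50 recomputed values over 16 results, 42 stayed within 1.5 times the value given, or for medians within 1 SD of the 2 regions, and 8 moved. EGR1 and JUND were the members with a region under all 7 alternatives of assignment, which could not have come out otherwise. Both regions overlap their gene, have the midpoint within 1 kb of its TSS and are among the widest. The nearest region to any other member was 392907 bp away. The 42 unchanged values include such counts, so they are no measure of robustness. In the wider 50% of regions 2 of the other immediate early genes were left instead of 4, as the regions of KLF6 and NR4A2 are narrower than the median. GC content of the EGR1 and JUND regions had a median of 66.1%, which was 73.8% over 1 kb around the midpoint and 67.7% in the part inside the gene, against an SD of 0.60 percentage points between the 2 regions. With 500 bases on each side of the TSS, which can only add matches, 5 members had a CArG box, 2 the cyclic AMP response element, 5 the EGR site, 4 the ETS core and 10 the GC box. No paired analysis was possible because shCtrl and shA3B have a single library apiece and nothing was tested. For the same reason no library could be left out, and the authors' threshold could not be varied without scores.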

Other observations

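The surroundings of the 2 regions differed. EGR1 had no other region within 1 Mb, and the next one on chromosome 5 was 2245827 bp away by midpoint. JUND had 4 others within 1 Mb, out of 17 regions on chromosome 19. The nearest, 703 bp wide, was at LSM4, an RNA-binding subunit of the U6 particle, 41134 bp from JUND. The next, 2290 bp wide and 103618 bp away, was at GDF15, a secreted stress-response cytokine, and also overlapped MIR3189. The other 2 were at CCDC124 and MAP1S. The regions at JUND and at GDF15 thus each overlapped a microRNA gene. How many of all listed regions do so was not counted, so nothing is read from this. FOSL1 had 3 regions within 1 Mb, among them those at the long noncoding RNA genes MALAT1 (223 bp) and NEAT1 (4872 bp). Whether these regions moved in the same direction is not shown by the list.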
